A study of Mus musculus with 30 samples.

Results

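A set of 10 genes for heat shock chaperones and their co-chaperones was followed through the activation of mouse muscle satellite cells: Dnajb1, Dnaja1, Hsph1, Hspb1, Hspa5, Hsp90aa1, Hsp90ab1, Bag3, Hsf1 and Hspd1. The genes were taken by symbol, and each was read on the probe set that the platform annotation assigns to that gene alone and that had the highest mean over the 30 arrays. Of the 10 genes, 8 had such a probe set among the 19938 genes tested, and Hsp90ab1 and Hsf1 were not analysed here. Satellite cells are the resident stem cells of skeletal muscle, and the study compared them at rest, as quiescent satellite cells (QSCs), with the cells found after an acute injury, as activated satellite cells (ASCs).

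Gene expression was measured on Affymetrix Mouse Gene 1.0 ST arrays in 10 groups of 3 arrays, all from hindlimb muscle. Of these, 4 groups came from 2-3-month-old C57BL6 wildtype mice and were sorted as VCAM+/CD31-/CD45-/Sca1- cells, either from uninjured muscle or 36, 60 or 84 h after an injury with BaCl2, a salt that kills muscle fibers. Another 4 were YFP+ cells at the same stages from Pax7CreER/+;ROSA26eYFP/+ mice of the same age that had received tamoxifen. In these mice the Cre recombinase is made from the Pax7 gene, so that YFP marks satellite cells and their progeny. The last 2 groups were VCAM-sorted wildtype cells of 22-24-month-old mice, uninjured and 60 h after injury. In every group the muscle was minced, digested with Collagenase II and Dispase and sorted before RNA was extracted, so each level is the level after that isolation, whose part in the chaperone levels was not tested. Arrays of one group correlated across genes at 0.996 to 0.998 (Pearson's r), and the median gene varied within groups by 0.10 on the log2 scale (pooled SD). The labels do not say that the arrays of a group came from different animals, so p-values measure the spread between these arrays, which may be technical.

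Chaperones bind unfolded or partly folded proteins and keep them from aggregating. HSP70 proteins do this in cycles of ATP hydrolysis that HSP40 proteins (the Dnaj genes) start and that nucleotide exchange factors such as HSP110 (Hsph1) and BAG3 complete, while small heat shock proteins such as HSPB1 hold unfolded proteins without ATP. When unfolded proteins build up in the cytosol, the transcription factor HSF1 binds heat shock elements in the promoters of many of these genes and raises their transcription. BiP (Hspa5) in the endoplasmic reticulum and HSP60 (Hspd1) in mitochondria serve other compartments, and BiP is raised by the unfolded protein response through a different promoter element.

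RefSeq promoter windows on build GRCm38.p6, from 250 bases before to 50 bases after an annotated start, were given for 7 of the 10 genes. Those of 6 genes are shown for the elements through which heat and endoplasmic reticulum stress are known to induce chaperone genes. A heat shock element was searched on both strands as 2 facing units, GAANNTTC or TTCNNGAA, and an endoplasmic reticulum stress response element as CCAAT, any 9 bases, then CCACG. Capitals mark these matches.
Hspb1, chr5:135887669-135887968, plus strand: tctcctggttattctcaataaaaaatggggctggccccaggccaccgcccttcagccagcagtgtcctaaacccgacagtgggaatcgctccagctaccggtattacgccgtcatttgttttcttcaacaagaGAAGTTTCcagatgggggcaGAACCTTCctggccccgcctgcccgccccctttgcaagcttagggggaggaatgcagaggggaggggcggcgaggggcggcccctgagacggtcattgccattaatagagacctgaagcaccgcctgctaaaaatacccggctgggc
Hsph1, second window, chr5:149636266-149636565, minus strand: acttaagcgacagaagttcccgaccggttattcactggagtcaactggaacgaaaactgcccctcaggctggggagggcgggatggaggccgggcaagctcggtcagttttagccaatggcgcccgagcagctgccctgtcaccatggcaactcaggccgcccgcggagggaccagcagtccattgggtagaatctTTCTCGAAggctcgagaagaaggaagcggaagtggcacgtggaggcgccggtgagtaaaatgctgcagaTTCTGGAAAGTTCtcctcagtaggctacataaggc
Bag3, chr7:128523333-128523632, plus strand: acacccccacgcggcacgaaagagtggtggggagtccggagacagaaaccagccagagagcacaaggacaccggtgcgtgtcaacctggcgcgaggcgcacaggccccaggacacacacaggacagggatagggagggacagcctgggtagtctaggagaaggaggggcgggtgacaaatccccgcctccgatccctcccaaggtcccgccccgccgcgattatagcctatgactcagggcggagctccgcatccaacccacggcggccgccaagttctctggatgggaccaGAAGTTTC
Dnaja1, first window, chr4:40722218-40722517, plus strand: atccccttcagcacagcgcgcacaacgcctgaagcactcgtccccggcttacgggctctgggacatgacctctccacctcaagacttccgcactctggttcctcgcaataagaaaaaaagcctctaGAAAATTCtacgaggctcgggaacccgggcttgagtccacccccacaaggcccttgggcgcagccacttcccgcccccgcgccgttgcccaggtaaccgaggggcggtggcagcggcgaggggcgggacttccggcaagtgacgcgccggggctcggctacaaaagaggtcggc
Hspd1, second window, chr1:55087883-55088182, minus strand: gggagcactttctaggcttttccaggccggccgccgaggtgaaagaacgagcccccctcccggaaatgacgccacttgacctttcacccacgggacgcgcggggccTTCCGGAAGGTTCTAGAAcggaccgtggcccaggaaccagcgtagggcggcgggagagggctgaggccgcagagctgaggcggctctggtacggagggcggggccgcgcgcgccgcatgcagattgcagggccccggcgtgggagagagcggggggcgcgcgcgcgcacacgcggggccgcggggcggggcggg
Hspa5, chr2:34771840-34772139, plus strand: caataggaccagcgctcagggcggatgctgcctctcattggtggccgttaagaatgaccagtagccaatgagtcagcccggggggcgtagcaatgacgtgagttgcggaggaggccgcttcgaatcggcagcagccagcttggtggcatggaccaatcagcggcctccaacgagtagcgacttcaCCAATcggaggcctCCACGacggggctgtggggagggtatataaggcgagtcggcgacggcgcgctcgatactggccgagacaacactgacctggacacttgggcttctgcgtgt

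The Hspb1 window held 2 heat shock elements, which begin at positions -117 and -97 from the annotated start. The Bag3 window held 1, at position 43 within the transcript. Of 3 Dnaja1 windows the first held 1, at position -124, and the other two held none. Both windows of Hsph1 held the same 3 overlapping or nearby matches, of which a pair formed an element of 3 units. The first of 2 Hspd1 windows held none, and the second held 3 matches that overlapped to 2 elements of 3 units, and it shared 285 bases with the window of Hspe1, which encodes the HSP10 partner of HSP60 and lies on the other strand. Neither of the 2 Dnajb1 windows held a match, which says only that these letters are not in those 300 bases. Hspa5 held no heat shock element but 1 endoplasmic reticulum stress response element, at position -65. For scale, 15.1% of 32851 mouse windows held at least 1 heat shock element of 2 units, 0.603% held one of 3 units and 0.119% held the endoplasmic reticulum element. A match describes the sequence and is not evidence that a factor was bound in these cells.

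The 5 genes Hspb1, Bag3, Dnajb1, Hsph1 and Dnaja1 were high in QSCs and fell after injury in each of the 3 time series. In young VCAM-sorted cells they fell by 2.42-fold to 10.9-fold at 60 h on the probe sets used. Hspa5 and Hsp90aa1 fell by less, and Hspd1 moved by less than the 1.5-fold threshold between any stages. A gene was counted as changed, or called, at an adjusted p under 0.05 in the limma fit and a fold of at least 1.5. In young VCAM-sorted cells 5 of the 8 measured genes were called lower at 36 h, where 9.72% of all genes were. At 60 h 6 of 8 were called lower against 12.6% of all genes, and at 84 h 6 of 8 against 11.2%. In YFP-sorted cells 5 of 8 were called lower at 36 h against 6.14% of all genes (3 of 8 with quantile normalization), 6 of 8 at 60 h against 12.8%, and 5 of 8 at 84 h against 11.2%. None of the 8 was called higher in any of these 6 comparisons, in which the cells of one sort share their QSC arrays. Of the 19938 genes tested, 2641, 3312 and 3262 were called higher at 36, 60 and 84 h in young VCAM-sorted cells. In YFP-sorted cells 2021, 3433 and 3389 were called higher at these stages. None among 8 genes is not far below what such shares give. The median change of the 8 genes at 60 h was -1.40 on the log2 scale in VCAM-sorted and -1.28 in YFP-sorted cells, while the median over all genes tested was -0.04 and -0.03.

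**Figure D1:**
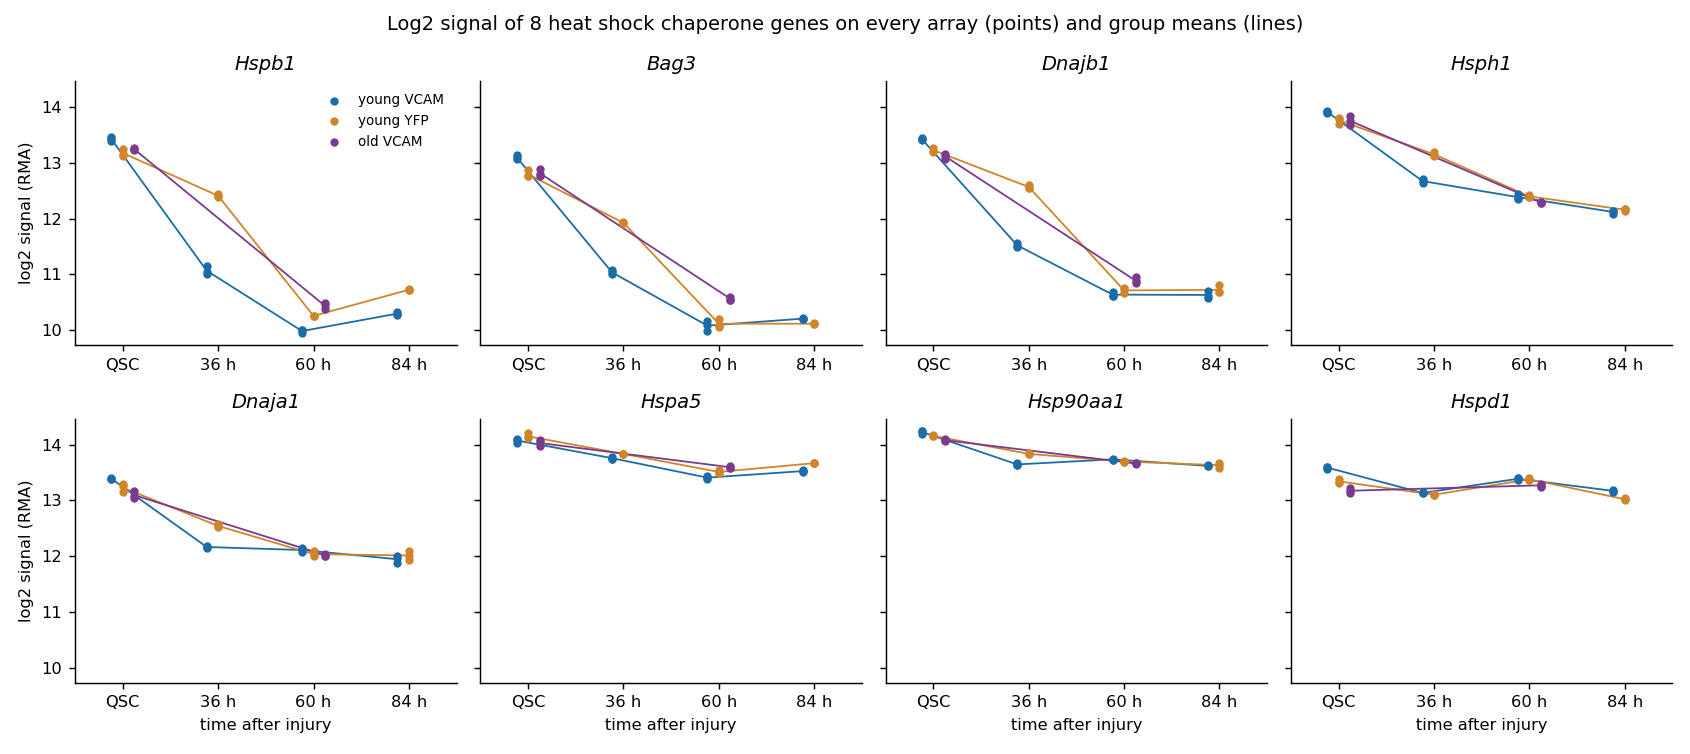
Log2 signal of the 8 measured chaperone genes (y axis, RMA scale) against time after injury (x axis) in young VCAM-sorted, young YFP-sorted and old VCAM-sorted cells, with 1 point per array and lines through the group means. Hspb1, Bag3 and Dnajb1 drop from between 12.75 and 13.46 in QSCs to between 9.95 and 10.95 at 60 h, and Hspd1 stays between 13.01 and 13.61 on all 30 arrays.

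Hspb1 encodes the small heat shock protein HSPB1 and had the largest fall of the 8 at 60 h in each of the 3 time series, while in the YFP sort Bag3 fell more at 36 h and Bag3 and Dnajb1 at 84 h. Its log2 signal was 13.46, 13.39 and 13.42 on the 3 young VCAM QSC arrays, 11.04, 11.00 and 11.15 at 36 h, 9.947, 10.004 and 10.002 at 60 h and 10.28, 10.28 and 10.33 at 84 h. Each of these groups lay apart from the others, with the lowest level at 60 h. On the YFP arrays it read 13.12, 13.25 and 13.16 in QSCs, 12.40, 12.39 and 12.44 at 36 h, 10.26, 10.26 and 10.25 at 60 h and 10.72, 10.72 and 10.73 at 84 h. The order of the stages was the same in both sorts, but at 36 h the YFP arrays had lost far less. The fall at 60 h was 10.9-fold in VCAM-sorted cells (log2 change -3.44, 95% confidence interval -3.53 to -3.35, adjusted p = 5.26e-28) and 7.57-fold in YFP-sorted cells (log2 change -2.92, -3.01 to -2.83, adjusted p = 1.10e-26). Counted from the most negative change at 60 h in VCAM-sorted cells, Hspb1 ranked 66 of 19938 genes. From 60 to 84 h it rose again by 0.31 in VCAM-sorted and 0.47 in YFP-sorted cells on the log2 scale (adjusted p = 2.34e-06 and 1.66e-09), below the fold threshold.

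Bag3 encodes a co-chaperone that releases nucleotide from HSP70 and joins it to small heat shock proteins for autophagy of damaged filaments in muscle. Its signal was 13.13, 13.06 and 13.10 in young VCAM QSCs, 11.00, 11.04 and 11.07 at 36 h, 9.99, 10.17 and 10.09 at 60 h and 10.21, 10.20 and 10.21 at 84 h. In YFP-sorted cells it was 12.75, 12.76 and 12.87, then 11.92, 11.91 and 11.94, then 10.09, 10.05 and 10.20, then 10.12, 10.13 and 10.10. The 60 h and 84 h arrays of the YFP sort overlapped, and QSC and 36 h arrays stood above them without overlap. The fall at 60 h was 8.10-fold in VCAM-sorted cells (log2 change -3.02 ± 0.05, SE) and 6.40-fold in YFP-sorted cells (-2.68 ± 0.05).

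Dnajb1, the HSP40 that drives the ATPase of HSP70 and is among the most heat-inducible genes, followed Bag3 closely. It read 13.44, 13.42 and 13.41 in young VCAM QSCs, 11.49, 11.56 and 11.51 at 36 h, 10.62, 10.62 and 10.68 at 60 h and 10.58, 10.70 and 10.61 at 84 h. The YFP arrays read 13.19, 13.22 and 13.27, then 12.56, 12.55 and 12.59, then 10.75, 10.73 and 10.66, then 10.81, 10.69 and 10.68. In both sorts the 60 h and 84 h arrays overlapped, and the change between them had a 95% confidence interval of -0.10 to 0.09 in VCAM-sorted and -0.08 to 0.10 in YFP-sorted cells. The fall from QSCs came to 6.89-fold at 60 h in VCAM-sorted cells (log2 change -2.78 ± 0.05, SE, adjusted p = 6.27e-26) and 5.70-fold in YFP-sorted cells (-2.51 ± 0.05, adjusted p = 4.29e-25).

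Hsph1, the HSP110 nucleotide exchange factor, and Dnaja1, a farnesylated HSP40, fell by less on the probe sets used. Hsph1 read 13.90, 13.90 and 13.94 in young VCAM QSCs, 12.63, 12.68 and 12.71 at 36 h, 12.36, 12.36 and 12.43 at 60 h and 12.14, 12.09 and 12.13 at 84 h. It was the one gene of the 5 that was still falling from 60 to 84 h in both sorts, by 0.27 in VCAM-sorted and 0.24 in YFP-sorted cells (adjusted p = 2.39e-05 and 5.84e-05), though below the fold threshold; Dnaja1 fell over this interval in VCAM-sorted cells, by 0.16 (adjusted p = 0.0114). Its fall from QSCs reached 3.47-fold at 84 h in VCAM-sorted cells and 3.04-fold in YFP-sorted cells. Dnaja1 read 13.39, 13.40 and 13.37 in young VCAM QSCs, 12.14, 12.18 and 12.17 at 36 h, 12.14, 12.12 and 12.07 at 60 h and 12.00, 11.97 and 11.87 at 84 h. Its 60 h arrays lay just below its 36 h arrays in the VCAM sort, and the change between them, -0.05 with a 95% confidence interval of -0.16 to 0.05, did not pass the test (adjusted p = 0.400). A second probe set of Dnaja1, tried as an alternative, gave a larger fall, -2.15 at 36 h in place of -1.22. It gave -2.26 at 60 h and -2.42 at 84 h in the VCAM sort, beyond the -1.53 and -1.79 of Hsph1. On this second probe set young VCAM QSCs read 12.09, 12.16 and 12.16 and young YFP QSCs 11.50, 11.32 and 11.47. It called the sorts different in QSCs by limma (log2 difference 0.71, adjusted p = 1.53e-09) where the first probe set did not (0.16).

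Hspa5 encodes BiP, the HSP70 of the endoplasmic reticulum. It read 14.04, 14.11 and 14.08 in young VCAM QSCs and 13.43, 13.41 and 13.39 at 60 h, with 36 h (13.75, 13.74 and 13.78) and 84 h (13.52, 13.55 and 13.50) between them. The groups did not overlap, yet the fall passed the fold threshold at 60 h alone, with 1.59-fold in VCAM-sorted (adjusted p = 1.33e-14) and 1.56-fold in YFP-sorted cells (adjusted p = 3.20e-14). Quantile normalization of the arrays put both under the threshold, at -0.56 and -0.57 on the log2 scale. Hsp90aa1, the inducible cytosolic HSP90, went from 14.25, 14.24 and 14.19 in young VCAM QSCs to 13.64, 13.66 and 13.63 at 36 h and 13.62, 13.61 and 13.63 at 84 h. Its change of -0.61 at 84 h in VCAM-sorted cells was called and lies next to the threshold of 0.58, and that of -0.52 in YFP-sorted cells was not called. Quantile normalization ended the former call (-0.55). Of 2 other Hsp90aa1 probe sets one ended it (-0.58), and the other kept it (-0.64) and was called at 36 h as well (-0.60). Hspd1, the mitochondrial HSP60, read 13.61, 13.56 and 13.60 in young VCAM QSCs, 13.12, 13.13 and 13.15 at 36 h, 13.40, 13.37 and 13.39 at 60 h and 13.15, 13.18 and 13.18 at 84 h. It thus fell, rose and fell, with a rise from 36 to 60 h of 0.25 in VCAM-sorted and 0.28 in YFP-sorted cells (adjusted p = 9.19e-07 and 2.21e-07), while 5 of the other 7 genes in the VCAM sort and all 7 in the YFP sort were lower at 60 h than at 36 h at an adjusted p under 0.05.

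**Figure D2:**
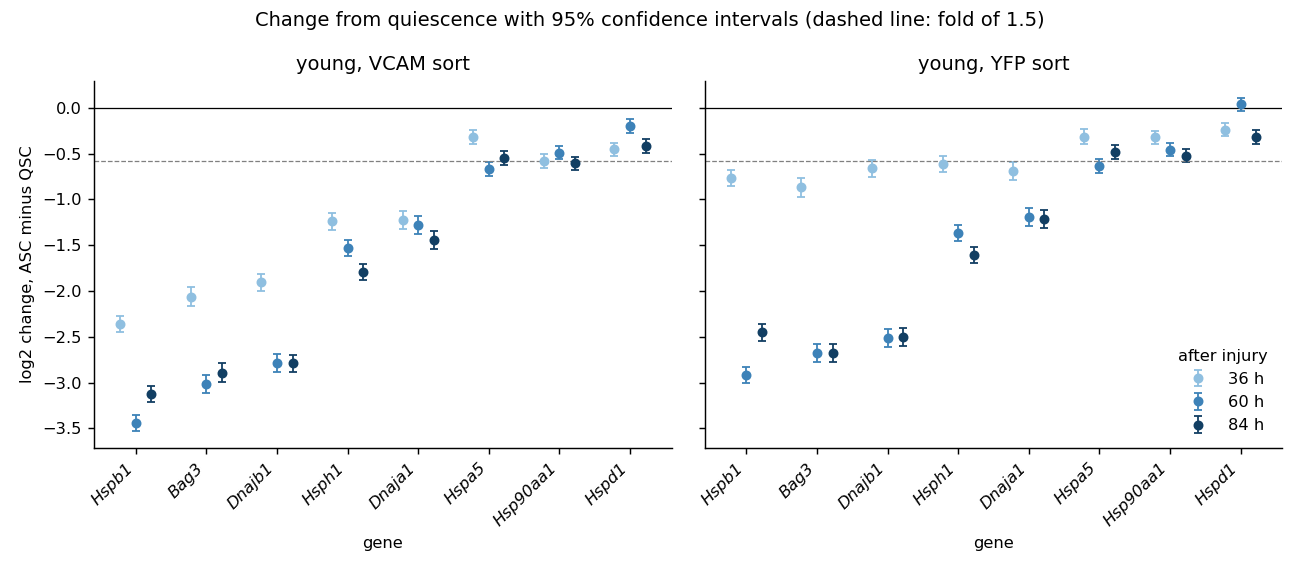
Log2 change of ASCs minus QSCs (y axis) for the 8 genes (x axis) at 36, 60 and 84 h in the VCAM sort and in the YFP sort of young mice, with 95% confidence intervals from limma and a dashed line at a fold of 1.5. In the VCAM sort the 36 h changes of Hspb1, Bag3 and Dnajb1 lie at -2.36, -2.06 and -1.90, and in the YFP sort at -0.77, -0.87 and -0.66.

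The sorts differed in how far the fall had gone at 36 h. In VCAM-sorted cells 3 of the 8 genes, Hspb1, Bag3 and Dnajb1, fell further from 36 to 60 h by at least 1.5-fold, against 8.49% of all genes. In YFP-sorted cells 4 did, the same 3 and Hsph1, against 8.58%, with log2 changes of -2.15 for Hspb1, -1.85 for Dnajb1 and -1.81 for Bag3 beside -1.08, -0.88 and -0.96 in the VCAM sort. Compared directly at 36 h, these 3 genes were lower in VCAM-sorted than in YFP-sorted cells, by 2.54-fold, 2.07-fold and 1.85-fold for Hspb1, Dnajb1 and Bag3, a call that 2.49% of all genes had. The difference between the changes from QSCs was tested as an interaction, and 4 of 8 genes were called, against 4.61% of all genes in that direction. Hspb1 had fallen by 1.59 more on the log2 scale in the VCAM sort (adjusted p = 3.19e-16), Dnajb1 by 1.24 (adjusted p = 7.11e-14), Bag3 by 1.19 (adjusted p = 5.37e-13) and Hsph1 by 0.63 (adjusted p = 6.81e-09). With the arrays centred on their medians the Hsph1 value was -0.56 and no longer called. For Dnaja1 the value was -0.54 (95% confidence interval -0.68 to -0.39), and on its second probe set it was -1.08 and called (adjusted p = 3.73e-10). For Hspa5 the value was -0.002 (95% confidence interval -0.113 to 0.108).

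At the other stages fewer of these genes were called between the sorts. In QSCs none of the 8 genes was called between the sorts by limma, against 3.55% of all genes, and 6 had an unadjusted p under 0.05. These 6 were higher in the VCAM sort at an adjusted p under 0.05 without the fold threshold, as were 3034 of 19938 genes. At 60 h none was called against 1.31% of all genes, with 2 at an unadjusted p under 0.05, and at 84 h none against 1.66%, with 3. At an adjusted p alone 1 was lower at 60 h, as were 1507 of all genes. At 84 h 1 was higher and 2 lower, beside 1969 and 2150 of all genes. As interactions with the QSC level, none was called at 60 h against 4.99% of all genes, with 5 at an unadjusted p under 0.05. At an adjusted p alone 4 were lower there, as were 2537 of all genes. At 84 h 1 was called, Hspb1, which had fallen by 0.67 more in the VCAM sort (adjusted p = 4.02e-09), where 3.84% of all genes were called in that direction. The second probe set of Dnaja1 was called there too, at -0.92 (adjusted p = 1.18e-08), in place of -0.23 on the first. The step from 60 to 84 h called none of the 8 in the VCAM sort, against 3.95% of all genes, and none in the YFP sort, against 6.86%, with 7 and 4 at an unadjusted p under 0.05. At an adjusted p alone 2 were higher and 4 lower in the VCAM sort, beside 2920 and 2668 of all genes. In the YFP sort 2 were higher and 2 lower, beside 3639 and 4155.

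Cells from old mice had the same genes high in QSCs and low at 60 h. Of the 8 genes 5 were called lower at 60 h in old mice, against 11.7% of all genes, and Hspa5 missed the fold threshold. Hspb1 read 13.24, 13.26 and 13.23 in old QSCs and 10.45, 10.38 and 10.48 at 60 h, a fall of 6.99-fold. Bag3 read 12.77, 12.79 and 12.89 and then 10.55, 10.54 and 10.60, a fall of 4.77-fold. Dnajb1 read 13.12, 13.16 and 13.07 and then 10.84, 10.88 and 10.95, a fall of 4.69-fold. At 60 h these genes were higher in old than in young VCAM-sorted cells by 0.45, 0.48 and 0.25 on the log2 scale, none of them called. Of the 8 genes 4 were higher and 4 lower in old cells there. As an interaction, 2 of 8 genes were called, both with a smaller fall in old mice, against 6.81% of all genes called higher. Bag3 had fallen by 0.76 less on the log2 scale than in young mice (95% confidence interval 0.62 to 0.91, adjusted p = 2.01e-09) and Hspb1 by 0.63 less (0.51 to 0.76, adjusted p = 6.43e-09). Dnajb1, with 0.55 (0.42 to 0.69), passed the adjusted p (1.57e-07) but not the fold. The call of Hspb1 ended with the arrays centred on their medians (0.54), with quantile normalization (0.56) and on another probe set of Hspb1 (0.55). The second probe set of Dnaja1 was called in this interaction, at 0.91 (adjusted p = 7.72e-09), where the first stood at 0.20.

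The difference in response lay partly in the QSCs and partly at 60 h. In old QSCs none of the 8 genes was called by limma against young QSCs, while 7.74% of all genes were. At an adjusted p under 0.05 without the fold threshold 7 of the 8 were lower, as were 4248 of the 19938 genes. The same 7 had an unadjusted p under 0.05. Of these, Hsph1 turned from -0.16 to 0.04 with quantile normalization. The differences ran from -0.05 for Hspa5 to -0.42 for Hspd1, whose 3 old arrays at 13.21, 13.18 and 13.13 lay below the 3 young VCAM arrays. At 60 h none was called between the ages, against 5.41% of all genes, with 7 at an unadjusted p under 0.05. At an adjusted p under 0.05 alone 4 of the 8 were higher and 1 lower, beside 2837 and 2731 of all genes. The largest differences there were 0.48 for Bag3 and 0.45 for Hspb1, higher in old cells. For 2 of the genes another probe set put the difference between old and young QSCs past the fold threshold, with -1.01 in place of -0.29 for Dnaja1 and -0.60 in place of -0.42 for Hspd1.

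**Figure D3:**
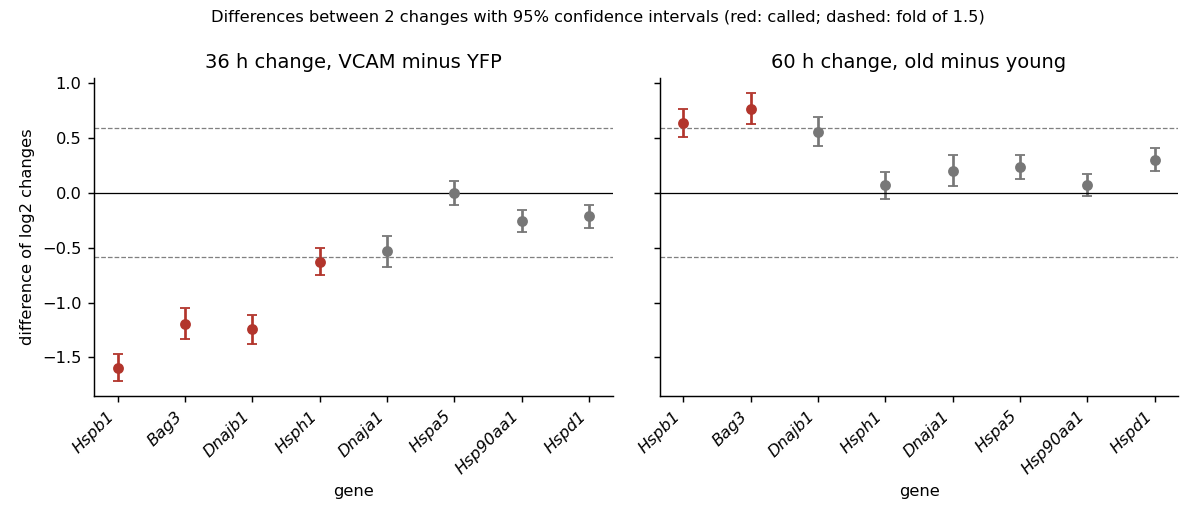
Differences between 2 changes from QSCs (y axis, log2) for the 8 genes (x axis), at 36 h between the VCAM and YFP sorts of young mice and at 60 h between old and young VCAM-sorted cells, with 95% confidence intervals and dashed lines at a fold of 1.5. Hspb1, Dnajb1, Bag3 and Hsph1 are called in the first panel, at -1.59 to -0.63, and Bag3 and Hspb1 in the second, at 0.76 and 0.63.

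The levels of the 10 groups fell in nearly one order for 5 of the genes. For Dnajb1, Dnaja1, Hsph1, Hspb1 and Bag3 the 3 QSC groups stood highest, young VCAM QSCs first, followed by the YFP cells at 36 h, then the VCAM cells at 36 h, then the 60 h and 84 h groups. Old cells at 60 h stood directly below the VCAM cells at 36 h for Dnajb1 and Bag3. Neighbours in this order overlapped in 3 of 9 places for Dnajb1, Hsph1 and Bag3, in 5 for Dnaja1 and in 1 for Hspb1. In each of these genes except Dnajb1, one overlap was between old and YFP QSCs. The other genes departed from this order. In Hspa5 the YFP QSCs stood above the young VCAM QSCs, with overlapping arrays of old and young VCAM QSCs below them. In Hsp90aa1 the VCAM cells at 36 h stood below the VCAM, YFP and old cells at 60 h, and in Hspd1 young VCAM QSCs were followed by the young VCAM and YFP cells at 60 h.

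The group means of the 7 genes other than Hspd1 were alike across the 10 groups, which share preparation and scaling. Pearson's r between Dnajb1 and Bag3 was 0.996 over the 10 group means, between Dnajb1 and Hspb1 0.992, and between Dnajb1 and Hspd1 0.286. The lowest r among the 7 genes was 0.877, between Hspa5 and Hsp90aa1. Over all genes tested, the 3 genes most like Dnajb1 were Hspa1a (0.997), which encodes the heat-inducible HSP70, Bag3 (0.996) and Snrk (0.995). Those most like Bag3 were Dnaja4 (0.996), an inducible HSP40, the phosphatase gene Dusp8 (0.996) and Dnajb1 (0.996). For Hspb1 they were Palmd, Dnajb1 and Sbspon, each at 0.991 or 0.992. For Hsph1 they were Disp3 (0.994), Zhx3 (0.991) and Frat1 (0.991), and for Dnaja1 Gm10069 (0.995), Clmn (0.994) and Ebf3 (0.993). For Hsp90aa1 they were Efcab5 (0.996), Ebf3 (0.990) and Dnaja1 (0.990), and for Hspa5 Tom1l2 (0.994), Btg2 (0.993) and Zfand5 (0.991). Hspd1 had no match of that kind, with Pdp2, Prl5a1 and Tst at 0.904, 0.904 and 0.898.

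The other heat-inducible genes split. Of 14 such genes measured outside the 8, 8 were called lower and none higher at 36 h in young VCAM-sorted cells, against 9.72% of all genes called lower and 13.2% higher. At 60 h 6 were called lower and 1 higher, against 12.6% and 16.6% of all genes. Dnaja4, with 12.21, 12.20 and 12.25 in young VCAM QSCs and 8.34, 8.42 and 8.50 at 60 h, fell by 14.0-fold, more than any of the 8 genes. Hspa1a read 14.15, 14.20 and 14.18 in QSCs and 11.51, 11.53 and 11.48 at 60 h, a fall of 6.38-fold. This probe set may also read the near-identical Hspa1b. Cryab, a small heat shock protein of muscle, fell by 2.16 at 60 h on the log2 scale and Dnajb4, another HSP40, by 1.72. Fkbp4, a co-chaperone of HSP90, was the one called higher, by 0.76. In old QSCs 6 of the 14 were called lower than in young QSCs, against 4.70% of all genes called lower, with Serpinh1 (-0.89), Chordc1 (-0.85), Cacybp (-0.71) and Dnajb4 (-0.70) in front. As an interaction between the sorts at 36 h, 5 of the 14 had fallen more in VCAM-sorted cells, against 4.61% of all genes.

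Among the families of the cytosol the calls went each way, and the shares over all genes to read them against are 12.6% lower and 16.6% higher. In young VCAM-sorted cells at 60 h, 3 of 11 further HSP70 and HSP110 genes were called lower (5 with quantile normalization) and 3 higher, with Hspa1a, Hspa1l (-1.75) and Hspa2 (-1.56) down and Hspa14 (1.31), a form associated with ribosomes, up. Of 14 cytosolic HSP40 genes 4 were called lower, Dnaja4 in front, and 3 higher, Dnajc2 (1.79) in front. The product of Dnajc2 works with that of Hspa14. Of 8 small heat shock proteins 2 were called lower, Cryab and Hspb8 (-0.59), and none higher. Hspb8, whose product binds BAG3, had fallen by 1.01 at 36 h in the VCAM sort and by 0.90 in the YFP sort, and its 60 h value lies next to the threshold. Of 10 genes of the BAG family and of chaperone-assisted autophagy 4 were called higher, Bag2 by 0.90, and 3 lower, which were Synpo2 (-1.59), the autophagy receptor Sqstm1 (-1.07) and the filamin gene Flnc (-0.93), whose products act with BAG3. Of 6 heat shock factors and their regulators 1 was called, Hsf2, 0.98 higher, a share near that over all genes. The medians of these lists lay between -0.41 for the HSP70 genes and 0.22 for the BAG list.

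**Figure D4:**
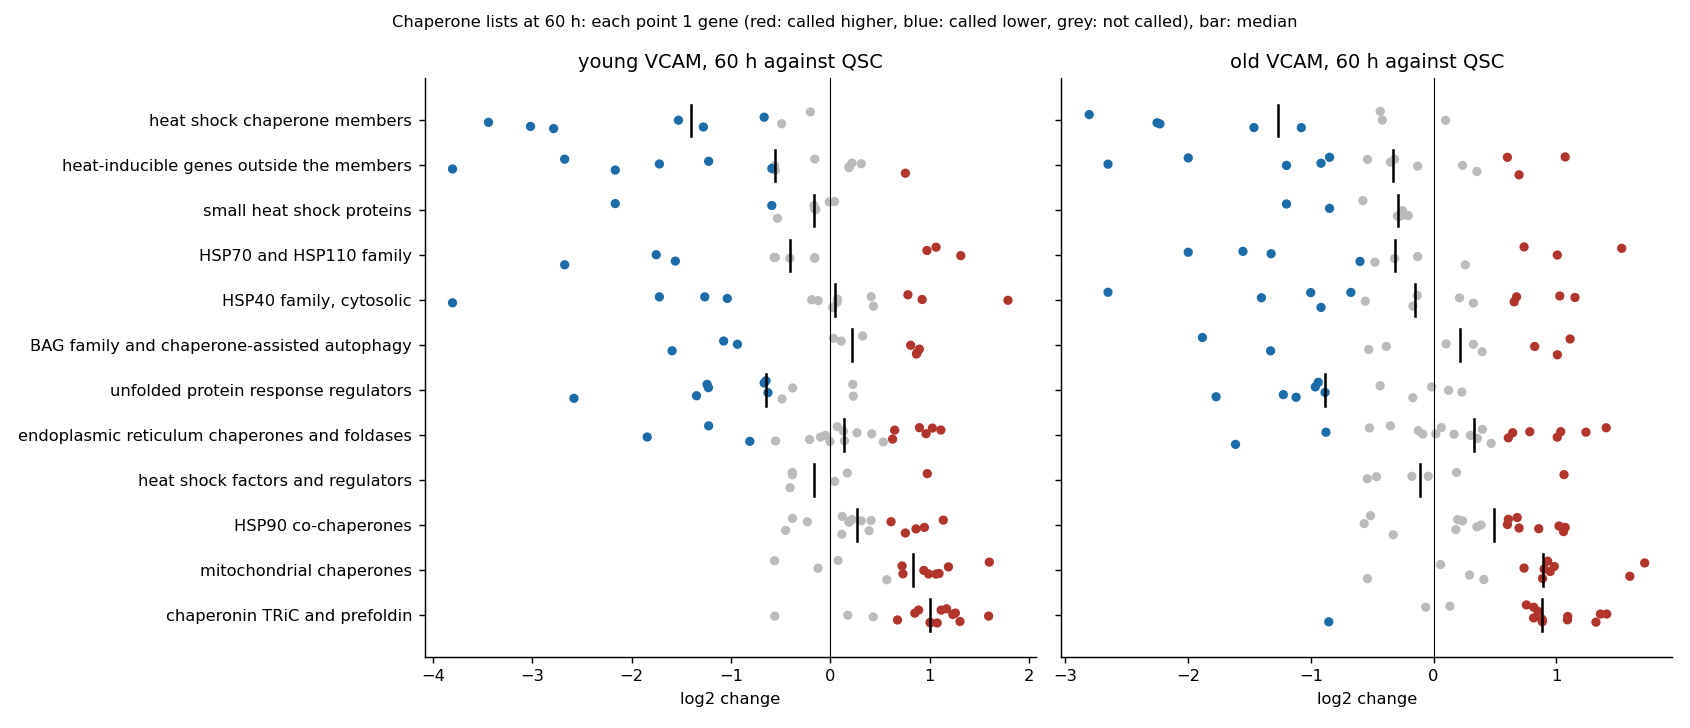
Log2 change at 60 h against QSCs (x axis) for the genes of 12 chaperone lists (y axis) in young and in old VCAM-sorted cells, with 1 point per gene, coloured by call, and a bar at the list's median. The 8 genes have medians of -1.40 in young and -1.27 in old cells, and the chaperonin list has 1.01 and 0.88. The x axes of the panels differ.

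In the lists of the cytosolic chaperonin and of mitochondrial chaperones most genes were called higher. At 60 h in young VCAM-sorted cells 16.6% of all genes were called higher and 12.6% lower. Of 15 genes for the cytosolic chaperonin TRiC and for prefoldin, which together fold actin and tubulin, 12 were called higher and none lower at 60 h in young VCAM-sorted cells, with a median of 1.01. Cct6a rose by 1.59, Cct7 by 1.30, Pfdn6 by 1.26 and Pfdn4 by 1.23 on the log2 scale. With quantile normalization 1 of the 15 was called lower as well. In old cells at 60 h 12 of the 15 were called higher, where 17.8% of all genes were, and 1 lower. Of 12 mitochondrial chaperone and protease genes 8 were called higher and none lower, led by Clpp (1.60), Trap1 (1.19), Lonp1 (1.09) and the mitochondrial HSP70 gene Hspa9 (1.06). Hspe1 did not follow them. It fell by 0.75 at 36 h and stood at -0.56 at 60 h and -0.81 at 84 h, beside -0.46, -0.20 and -0.42 for its partner Hspd1; Hspe1 was picked out after its values were seen. Of 16 HSP90 co-chaperones 5 were called higher and none lower, with a median of 0.26, led by Ppid (1.14), Cdc37 (0.95), the ubiquitin ligase gene Stub1 (0.86) and Fkbp4. With quantile normalization of the arrays 4 were higher and 1 lower.

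In the endoplasmic reticulum a majority of the measured stress regulators were called lower, and folding enzymes moved each way. The shares over all genes at 60 h in young VCAM-sorted cells were 12.6% lower and 16.6% higher. The share of chaperones and foldases called lower was near the former. Of 11 genes of the unfolded protein response, Hspa5 among them, 7 were called lower and none higher at 60 h in young VCAM-sorted cells. Ppp1r15a, which reverses the stress block on translation, fell by 2.58, Herpud1 by 1.35, Ddit3 by 1.24 and Xbp1 by 1.23. With the arrays centred on their medians 4 of the 11 were called lower. Of 20 chaperones and foldases 6 were called higher and 3 lower, with Dnajb9 (-1.84) and the collagen chaperone gene Serpinh1 (-1.22) down and Sdf2l1 (1.11) and the oxidase gene Ero1a (1.03) up. With quantile normalization 4 were higher and 4 lower.

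Other gene groups moved beside the chaperones. Of 27 immediate early genes, a list of fast-induced genes such as Fos and Egr1, 20 were called lower and 2 higher at 36 h in young VCAM-sorted cells, 24 lower and none higher at 60 h, and at 60 h in old cells 14 were called higher than in young cells, against 4.75% of all genes. Their mean log2 signal was 11.66 to 11.68 on the young VCAM QSC arrays, 10.67 to 10.72 at 36 h and 9.56 to 9.65 at 60 h, and 10.98 to 11.01 on the YFP arrays at 36 h. In the interaction of the sorts at 36 h 9 of the 27 had fallen more in the VCAM sort and 2 less, and in the interaction of age at 60 h 17 had fallen less in old cells and 1 more. Of 15 satellite cell markers 9 were called lower and 1 higher at 36 h in the VCAM sort and 8 lower and 2 higher in the YFP sort, and 8 had fallen more in the VCAM sort. Pax7 itself averaged 11.68 in young VCAM QSCs and 8.95 at 36 h, and 10.98 and 10.03 in the YFP sort. All 17 macrophage markers were called higher at 36 h in both sorts, with a mean log2 signal of 6.39 to 6.50 on the young VCAM QSC arrays, 9.79 to 9.85 at 36 h and 7.95 to 8.06 at 60 h. On the old arrays it was 6.64 to 6.72 in QSCs and 9.69 to 9.80 at 60 h, where all 17 were called higher than in young cells. Ptprc, which encodes the CD45 that the VCAM sort excludes, averaged 6.24 in young VCAM QSCs and 9.05 at 36 h. All 11 endothelial markers were called in the interaction of the sorts at 36 h, with the change in the VCAM sort below that in the YFP sort. In the YFP sort 10 of the 11 were called higher at 36 h than in QSCs, and their mean log2 signal went from 9.04 to 9.93. In the VCAM sort it went from 8.99 to 8.73, and Pecam1 averaged 9.57 in QSCs and 9.59 at 36 h. In old cells 7 of the 11 had fallen less by 60 h than in young cells. Of 8 pericyte and smooth muscle markers 7 had a change at 36 h in the VCAM sort below that in the YFP sort, and 7 had fallen less by 60 h in old cells. Their mean log2 signal was 10.57 to 10.67 on the young VCAM QSC arrays, 9.53 to 9.64 at 36 h and 8.14 to 8.19 at 60 h, and 8.80 to 8.84 on the old arrays at 60 h. On the YFP arrays it was 9.51 to 9.54 in QSCs and 9.70 to 9.73 at 36 h. Of 7 fibroblast markers 3 were called higher and 1 lower in the interaction of the sorts at 36 h, and 4 higher and none lower in that of age. Of 12 myofiber markers 2 were called lower in the former, and 2 higher and 5 lower in the latter. To read the counts against QSCs, 2641 of all 19938 genes were called higher and 1937 lower at 36 h in the VCAM sort. At 36 h in the YFP sort 2021 were called higher and 1225 lower, and at 60 h in young VCAM-sorted cells 3312 and 2519. The satellite cell markers called higher at 36 h are few and not above what such shares give by much. In the interaction of the sorts at 36 h 892 of all genes were called higher and 920 lower. In that of age 1358 were called higher and 430 lower. The part of any of these groups in the chaperone changes was not tested, and in bulk samples fewer cells of a type and less RNA per cell cannot be told apart.

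**Figure D5:**
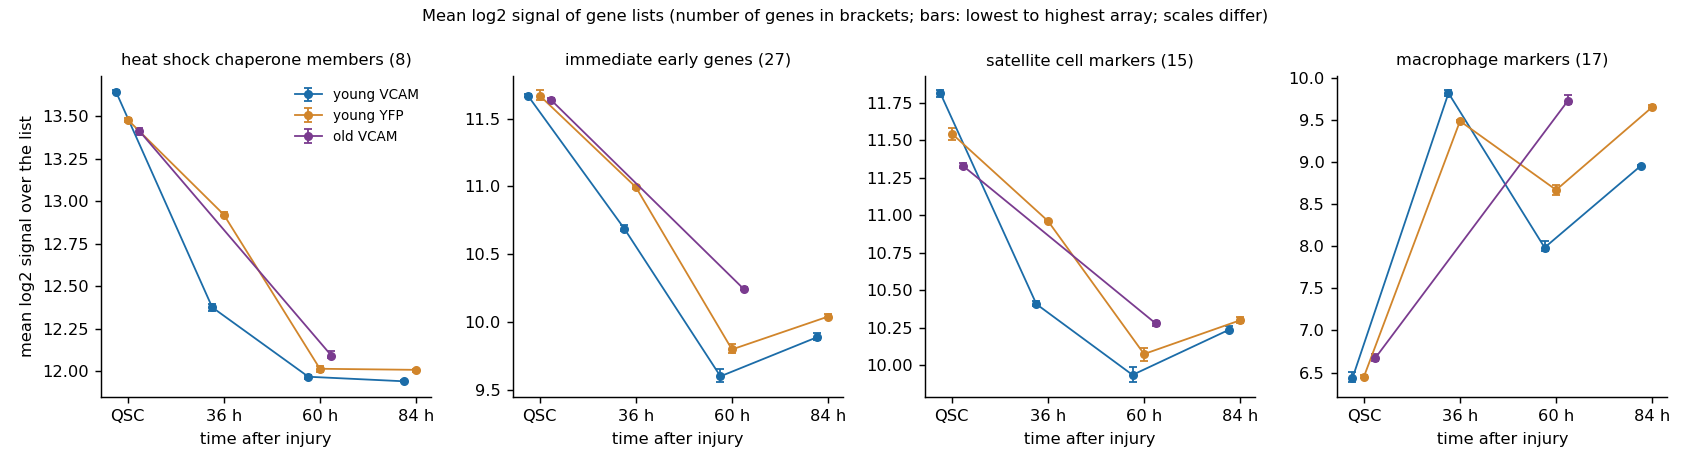
Mean log2 signal (y axis, scales differ) against time after injury (x axis) for the 8 chaperone genes, 27 immediate early genes, 15 satellite cell markers and 17 macrophage markers in the 3 time series, with points at group means and bars from the lowest to the highest array. The chaperone, immediate early and satellite cell lists are lower at 36 h in the VCAM sort than in the YFP sort, and the macrophage list is 9.79 to 9.85 against 9.47 to 9.50.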

How the data were processed

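RNA of sorted hindlimb cells was hybridized to 30 Affymetrix Mouse Gene 1.0 ST arrays, in 10 groups of 3 taken from the sample labels. The authors deposited log2 values; the submitters' processing notes name Affymetrix Expression Console and RMA (background correction, quantile normalization and summary of probes), with versions not given in the sources used here. RMA compresses folds and fixes the distribution of each array, so a change shared by most genes would not show. The table held 35556 probe sets, with array medians between 7.03 and 7.16. The platform annotation named 1 gene for 21789 probe sets, several for 1621 and none for 12146, and 21698 of the first matched a current gene by Entrez number. The brightest single-gene probe set stood for each of 19938 genes, and 999 of these had others.

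All arrays entered one limma 3.58.1 fit (R 4.3.3) with a mean per group and 20 residual degrees of freedom, and 21 contrasts were tested with eBayes. Benjamini-Hochberg adjustment ran over all genes within each contrast. Calls needed an adjusted p under 0.05 and a fold of at least 1.5, and confidence intervals are at 95%. The procedure was tested on simulated data. The genes and lists were chosen with earlier results of these data known. From each list, up to 4 called genes with the largest absolute change were named, and for likeness the 3 genes with the highest correlation of group means. Hspe1, Hspb8 at 36 h and Fkbp4 in the heat-inducible list were singled out after their values were seen. Alternatives were array centring, quantile normalization, a filter on dim genes (mean log2 of at least 6), fits on the compared groups alone, no fold threshold, trended robust variances, the replicate number as a block, the mean of all probe sets, each array left out and, chosen after seeing the data, each other probe set of Dnaja1, Hspb1, Hsp90aa1 and Hspd1. An array gives no read depth; the number of arrays limits the precision.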

Additional observations from a re-analysis of the deposited data

Results flagged for a closer look

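At 36 h the changes from QSCs differed between the sorts for 4 genes by the interaction test of limma. The VCAM-minus-YFP difference in log2 change was -1.59 for Hspb1, -1.24 for Dnajb1, -1.19 for Bag3 and -0.63 for Hsph1. At 84 h the same difference was -0.67 for Hspb1, which at 60 h stood at -0.52 and was not called. Genotype, tamoxifen and sort markers differ together between these groups and cannot be told apart. At 60 h the response of old cells was smaller than that of young cells by 0.76 for Bag3 and by 0.63 for Hspb1. Markers of macrophages, satellite cells, endothelial cells, pericytes and smooth muscle, fibroblasts and myofibers and the immediate early genes had calls in the interactions of sort at 36 h and of age at 60 h, and their part in these differences was not tested.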

How the results depend on the processing

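With the arrays centred on their medians 1 of the 8 chaperone genes, Bag3, was called in the interaction of age at 60 h in place of 2, and with quantile normalization also 1. Quantile normalization called 3 genes in place of 5 at 36 h in YFP-sorted cells, where Dnajb1 stood at -0.55 and Dnaja1 at -0.58, and turned the log2 change of Hsph1, old against young QSC, VCAM, to 0.0397 (adjusted p = 0.428). The mean of all probe sets of a gene called 1 gene, Dnaja1, lower in old than in young QSCs in place of none. Without the fold threshold the VCAM sort had 8 called genes at 36 h, 7 from 36 to 60 h and 6 from 60 to 84 h. Over all 19938 genes that setting called 5587 higher and 5572 lower at 36 h in this sort. It called 5348 and 4065 from 36 to 60 h and 2920 and 2668 from 60 to 84 h. The YFP sort then had 8 at 36 h, 8 at 84 h, 8 from 36 to 60 h and 4 from 60 to 84 h. Over all genes there were 4781 higher and 4984 lower at 36 h and 5999 and 6798 at 84 h. From 36 to 60 h there were 5873 and 4444, and from 60 to 84 h 3639 and 4155. Between the sorts there were 6 in QSCs, 6 at 36 h, 1 at 60 h and 3 at 84 h, and as interactions 7, 4 and 5 at 36, 60 and 84 h. All genes between the sorts had 3034 higher and 2952 lower in QSCs and 3899 and 3527 at 36 h. They had 1009 and 1507 at 60 h and 1969 and 2150 at 84 h. As interactions they had 3252 and 2979 at 36 h, 2332 and 2537 at 60 h and 2697 and 2773 at 84 h. Between the ages there were 7 in QSCs, 5 at 60 h, 6 as an interaction, and 8 for the response of old cells. All genes between the ages had 3323 higher and 4248 lower in QSCs and 2837 and 2731 at 60 h. As an interaction they had 3731 and 2518, and for the response of old cells 5964 and 7835. Over all genes that setting called 5864 genes higher and 6046 lower at 60 h in the VCAM sort in place of 3312 and 2519. Leaving out any array kept the number of called chaperone genes within 1.5 times in each comparison, and Hsp90aa1 at 36 h in the VCAM sort (-0.58) passed the fold threshold without replicate 3 of the QSCs (-0.60) or replicate 2 at 36 h (-0.59).

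Of 135 same-numbered pairs of arrays in different groups, 27 deviated together with a correlation above 0.1 (mean 0.04, against -0.02 for other numbers). Pairs of other numbers above 0.1 were not counted, so this cannot decide whether the replicate numbers pair the arrays. With the replicate number as a block the counts of called chaperone genes did not change, for example 5, 6 and 6 at 36, 60 and 84 h in the VCAM sort. Centring moved the median change of all genes from 36 to 60 h in the VCAM sort from 0.00 to 0.11. It also moved the share of calls that were higher by over 10 points in 10 comparisons, among them the interaction of age (76.0% to 57.8%, and 64.9% with quantile normalization), those of the sorts at 36 h (49.2% to 60.7%), 60 h (44.3% to 64.6%) and 84 h (41.4% to 56.4%), the sorts in QSCs (48.9% to 35.1%) and the YFP sort at 36 h (62.3% to 51.4%). The others were the steps from 36 to 60 h (42.5% to 59.0% in the VCAM and 50.4% to 60.7% in the YFP sort) and from 60 to 84 h (81.5% to 64.5% and 68.0% to 57.3%). The cause of these shifts was not tested.

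Each value is the signal of 1 probe set on a compressed scale, and each group has 3 arrays whose source animals the labels do not give.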
